A study of Mus musculus with 8 samples.

Results

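Among the OT-I T cells recovered from KPC_OVA tumours, 2334 of 23337 cells had the highest shares of transcripts for 4 secreted proteins within their library. The proteins were interferon gamma (Ifng), lymphotactin (Xcl1) and the chemokines Ccl3 and Ccl4. The cells were chosen by these transcripts. For each cell with exactly 1 called guide and at most 10% of its UMIs (unique molecular identifiers, 1 per captured transcript) in mitochondrial genes, the UMIs of the 4 genes were divided by all gene UMIs, and the top 10% of cells within each library were taken as members. This gave 255 of 2552 cells in anti-PD-1 replicate 1, 262 of 2616 in replicate 2, 653 of 6530 in replicate 3 and 1164 of 11639 in IgG. The levels of the 4 genes in members are therefore a description, whereas all other genes, and each of the 4 genes with members chosen by the other 3, could be tested. Only mRNA was measured, so that "cytokine" here stands for its transcript.

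The cells were CD90.1+ OT-I T cells, CD8+ T cells whose receptor recognises a peptide of chicken ovalbumin. They came from OT-I:Rosa26-Cas9 mice, were activated and transduced with a lentiviral CROP-seq library against metabolic genes with nontargeting guides (sgNT) as controls, and were selected by the CD90.1 that the vector encodes. They were transferred into Rosa26-Cas9 mice carrying orthotopic tumours of KPC_OVA, a mouse pancreatic ductal adenocarcinoma line made to express ovalbumin, and were sorted from the primary tumour 7 days later. All cells of both groups thus carry Cas9 and a guide. Each recipient received either anti-PD-1, in 3 libraries, or control rat IgG, in 1 library. The study used more mice than there are libraries, so that libraries may pool mice, and the labels give neither the mice behind a library nor an age per library. Replicates 1 and 2 share the stem of their label and may not come from separate mice, in which case their spread is technical.

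Interferon gamma acts on tumour cells and macrophages, where it raises antigen presentation. Xcl1 draws cross-presenting dendritic cells through their receptor Xcr1, and Ccl3 and Ccl4 draw myeloid cells and T cells. In CD8+ T cells these genes are switched on within hours of antigen recognition, by the calcium-dependent factor NFAT together with AP-1 and NF-kappaB, and fade as the signal ends. Effector cells, exhausted cells and their precursors can all transcribe them, which is why the rest of the transcriptome of such cells is of interest.

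Ccl3 and Ccl4 are neighbours in the genome, whereas Ifng and Xcl1 lie on chromosomes of their own. In mm10, with gene models of GENCODE M21, Ifng occupies chr10:118441046-118445892 on the forward strand and Xcl1 chr1:164931644-164935527 on the reverse strand. Ccl3 lies at chr11:83647844-83649355 on the reverse strand and Ccl4 at chr11:83662584-83664683 on the forward strand. The annotated gene Gm49751 overlaps Ifng and Gm20743 overlaps Xcl1, so that their reads may be shared in part. The 250 bases before the RefSeq start of Ifng, Xcl1 and Ccl3, and of Tnf as a further cytokine gene that rose in members, are shown because these genes were high in the same cells. The RefSeq start of Xcl1 lies inside its GENCODE model and that of Ccl3 upstream of it, so that their windows do not begin at the gene ends given above. They are RefSeq sequences of GRCm38.p6, written 5′ to 3′ on the strand of the gene, with matches to GGAAA, the core of NFAT sites, in capitals on either strand (TTTCC is the other strand).
Ifng, chr10:118440796-118441045, forward: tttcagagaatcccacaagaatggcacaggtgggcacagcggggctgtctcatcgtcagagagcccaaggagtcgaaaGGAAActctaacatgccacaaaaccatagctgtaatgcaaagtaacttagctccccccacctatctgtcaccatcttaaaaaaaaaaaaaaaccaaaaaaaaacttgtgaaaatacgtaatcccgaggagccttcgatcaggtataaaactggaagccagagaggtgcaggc
Xcl1, chr1:164935523-164935772, reverse: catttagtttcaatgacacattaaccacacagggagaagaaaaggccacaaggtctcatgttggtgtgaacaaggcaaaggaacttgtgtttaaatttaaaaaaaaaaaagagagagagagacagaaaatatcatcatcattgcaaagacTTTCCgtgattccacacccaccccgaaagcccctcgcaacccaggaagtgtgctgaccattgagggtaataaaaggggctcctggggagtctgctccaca
Ccl3, chr11:83649379-83649628, reverse: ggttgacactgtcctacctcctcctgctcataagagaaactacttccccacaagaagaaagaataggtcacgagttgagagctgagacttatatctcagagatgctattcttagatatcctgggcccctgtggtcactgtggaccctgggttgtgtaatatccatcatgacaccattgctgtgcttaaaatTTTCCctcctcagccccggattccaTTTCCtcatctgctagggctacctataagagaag
Tnf, chr17:35202008-35202257, reverse: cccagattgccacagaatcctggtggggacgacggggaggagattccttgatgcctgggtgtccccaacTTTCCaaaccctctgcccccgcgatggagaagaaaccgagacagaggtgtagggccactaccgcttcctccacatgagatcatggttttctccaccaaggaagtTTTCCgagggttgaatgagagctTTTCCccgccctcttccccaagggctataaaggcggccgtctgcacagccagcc
The GGAAA core had 1 match before Ifng, 1 before Xcl1, 2 before Ccl3 and 3 before Tnf, and at least 1 match in 55.6% of 32851 promoters of this length. TGANTCA, the core of AP-1 sites, had 0 matches in these 4 windows and at least 1 in 6.75% of all promoters.

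Values of the 4 libraries are given below in the order anti-PD-1 replicates 1, 2 and 3 and IgG. The lowest member held 2.12%, 2.50%, 1.87% and 1.44% of its UMIs in the 4 genes, and the cell just below the cut 2.10%, 2.50%, 1.87% and 1.43%. The shares ran without a gap across the cut, as the plot of shares per cell shows, so that the cut marks a rank and not a break in the shares. Whether members form a separate population was not tested. The median member held 3.57%, 4.34%, 3.14% and 2.53%, against 0.172%, 0.200%, 0.101% and 0.114% for the median of the other cells. Members, being 10% of the cells, held 54.2%, 55.5%, 60.6% and 61.6% of all UMIs of the 4 genes.

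**Figure D1:**
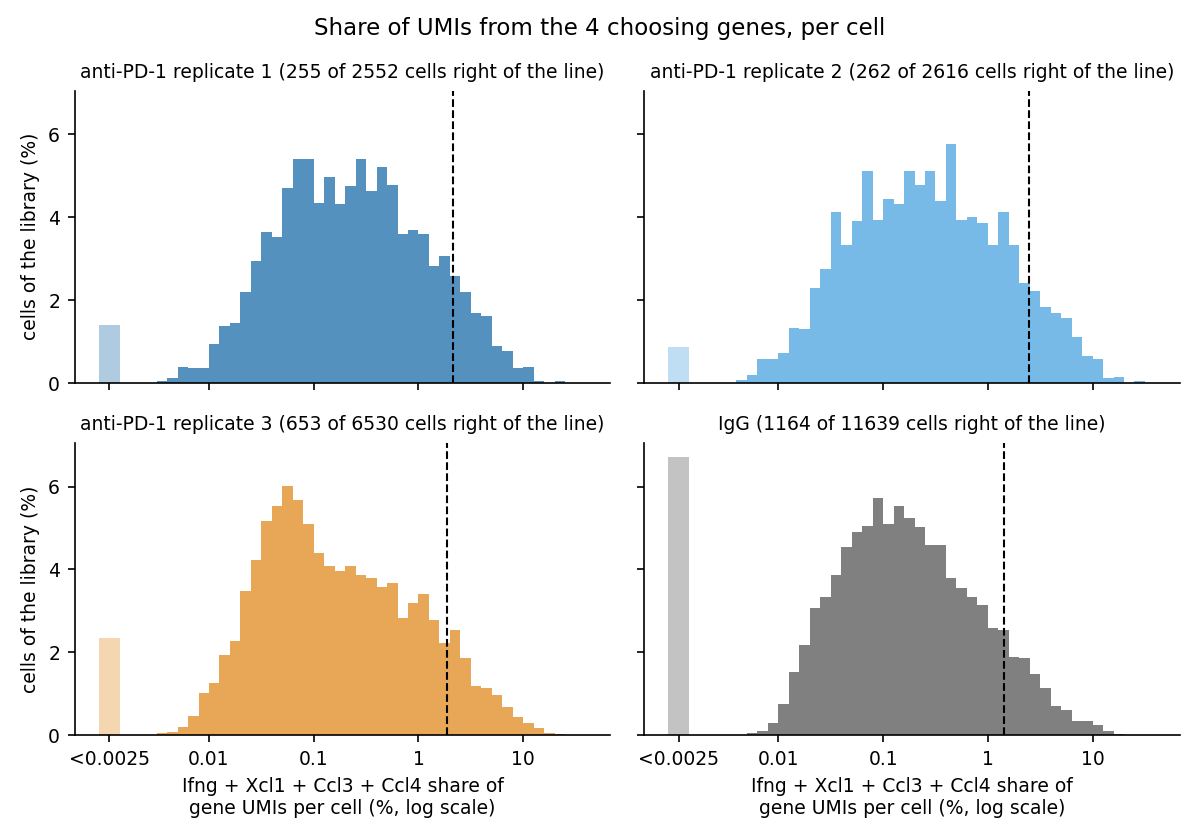
Distribution over cells of the share of gene UMIs from Ifng, Xcl1, Ccl3 and Ccl4 (x axis, %, log scale, with cells under 0.0025% in the pale bar) as % of the cells of each library (y axis), with the lowest member as a dashed line. No gap separates members from the other cells in any library, and the line stands at 2.12%, 2.50%, 1.87% and 1.44%.

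The make-up of the 4 genes, in counts per 1000000 gene UMIs (CPM), differed between libraries. Ifng stood at 2613, 4484, 2459 and 2806 CPM in members, against 203, 216, 182 and 193 CPM in the other cells. Xcl1 stood at 11221, 15762, 7961 and 10905 CPM, against 1158, 1380.1, 816 and 1035 CPM. Ccl3 stood at 9541, 11594, 7970.3 and 5317 CPM, against 753, 908, 479 and 284 CPM. Ccl4 stood at 19458, 22383, 23849 and 15570.2 CPM, against 1860.0, 2174, 1654 and 1059 CPM. Replicate 2 was highest for Ifng, Xcl1 and Ccl3, and IgG was lowest for Ccl3 and Ccl4.

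Cells chosen by 3 of the genes were also rich in the fourth. With members chosen without Ifng, its level was 2408, 4491, 2416 and 2765 CPM in the chosen cells against 240.0, 245, 199 and 210.4 CPM in the others, a log2 fold change of 3.80 ± 0.09 (SE, n = 4 libraries, adjusted p = 9.04e-14 in edgeR's quasi-likelihood test). Xcl1, held out in the same way, stood at 6079, 9393, 5189.8 and 6729 CPM against 1744, 2069.7, 1158 and 1571 CPM, a log2 fold change of 2.14 ± 0.05 (adjusted p = 4.17e-13). Ccl3 rose by 3.81 ± 0.08 (adjusted p = 4.59e-14) and Ccl4 by 3.02 ± 0.07 (adjusted p = 4.22e-12) on the log2 scale when each was held out. Chosen and other cells did not overlap over the libraries for any of the 4, and the difference was smallest for Xcl1.

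Members were T cells by their transcripts. The 9 genes of CD8 T cell identity (Cd3e, Cd8a, Trac and others) summed to between 10492 and 11923 CPM in members and between 9758 and 10777 CPM in the other cells, and were higher in members in 4 of 4 libraries. Cd4 was at 0 in members, as were Ncr1 of NK cells and Cd79a and Ms4a1 of B cells. Myeloid markers summed to between 26.1 and 83.2 CPM in members and between 38.4 and 65.2 CPM in the other cells, and B and plasma cell markers to between 39.8 and 43.4 CPM against 59.5 to 275 CPM. Of the 22 myeloid markers Adgre1, S100a8 and Csf3r were at 0 in members, the sum was higher in members in 2 of 4 libraries, and of 11 tested Itgax and H2-Aa were called higher and 0 lower. H2-Aa, a chain of MHC class II, stood at 2.16, 1.36, 4.12 and 9.28 CPM in members, above the other cells in 3 of 4 libraries (0.995 ± 0.23 on the log2 scale, adjusted p = 0.00181 in edgeR), and was not called without IgG (0.47, adjusted p = 0.19). Itgax (CD11c) changed by 0.34 ± 0.10 (adjusted p = 0.00705), and was not called without IgG either (0.30, adjusted p = 0.064). The part of myeloid RNA in the results was not tested. For 9 tumour epithelial markers the ranges were 9.53 to 18.2 CPM and 11.7 to 37.4 CPM, with Msln and Cldn4 at 0 in members, and of 5 tested Epcam was called higher (0.43 ± 0.13, adjusted p = 0.0136, but 0.18 and adjusted p = 0.307 without replicate 3) and 3 keratins lower. Stromal markers ranged from 3.94 to 5.90 CPM against 7.47 to 17.5 CPM, with 6 of 9 at 0. NK cell markers ranged from 627 to 1496 CPM against 808 to 2413 CPM. For CD4 and gamma delta T cell markers the ranges were 210.03 to 475 CPM and 217 to 507 CPM, and erythroid markers reached at most 0.329 CPM in members. Total gene UMIs of the libraries ran from 142945121 to 155974184, spread over 9579 to 23269 barcodes, and 3 to 20 of the barcodes used were shared between any pair of libraries. Median UMIs per cell were 16405, 16082, 12353 and 6748 in members and 16829, 16235, 11910.0 and 6231 in the other cells, a mean log2 difference of 0.03 ± 0.07 (SD, n = 4, two-sided exact sign-flip permutation test, p = 0.5, where the smallest possible p is 0.125).

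Over all genes, 2990 of 11864 tested (25.2%) were higher in members and 3008 (25.4%) were lower at an adjusted p under 0.05, with the 4 choosing genes left out. By at least 2-fold, 267 genes (2.25%) were higher and 333 (2.81%) lower. The median log2 fold change over all genes was -0.04. These shares are the background for every count of a gene list below. The largest rises and falls, here and in the contrasts below, were ranked among called genes with 1 direction in all 4 libraries and a mean log2 CPM above 4, so that rarer genes with larger changes are not among them. The largest rises belonged to further cytokines, nuclear receptors and Egr factors of antigen signalling, and the largest falls to granzymes C, D and F, to Txnip and to cell division genes. A plot of the 12 largest rises and 8 largest falls shows them by library.

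**Figure D2:**
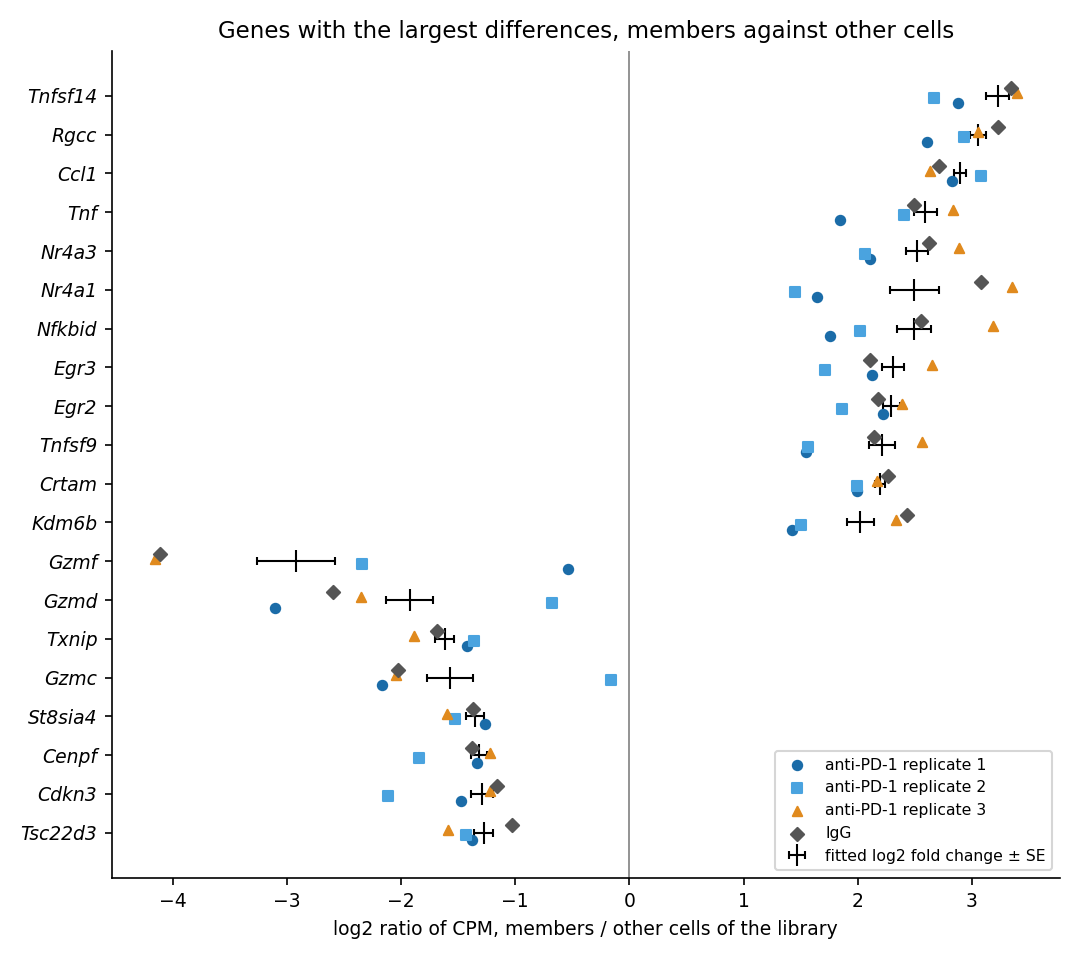
Log2 ratio of CPM in members to that in the other cells of the same library (x axis) for the 12 genes with the largest rise and the 8 with the largest fall (y axis), with symbols for libraries and a black mark for the fitted log2 fold change ± SE over 4 libraries. The choice of genes required 1 direction in each library. Gzmf and Gzmd spread most.

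Cytokines and TNF family ligands outside the rule were mostly higher in members, 14 of 19 tested rising and 5 falling, with a median log2 fold change of 1.27. Tnf, which encodes tumour necrosis factor, stood at 26.4, 36.6, 143 and 103 CPM in members and 7.37, 6.92, 20.03 and 18.3 CPM in the other cells, a log2 fold change of 2.59 ± 0.10 (SE, n = 4, adjusted p = 2.18e-12). Both sides were higher in replicate 3 and IgG than in replicates 1 and 2, and members exceeded the other cells in each. Tnfsf14, encoding the ligand LIGHT, stood at 43.5, 34.1, 64.9 and 65.4 CPM in members against 5.91, 5.38, 6.17 and 6.44 CPM, a log2 fold change of 3.23 ± 0.10 (adjusted p = 1.55e-13), and its lowest member value was above its highest value elsewhere. Tnfsf9, the ligand of 4-1BB, rose by 2.21 ± 0.11 (adjusted p = 6.93e-11) and Tnfsf11, encoding RANKL, by 1.17 ± 0.08 (adjusted p = 2.75e-09) on the log2 scale.

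Il2, the T cell growth factor, was sparse, at 5.63, 72.6, 23.6 and 30.1 CPM in members and 2.76, 3.05, 2.40 and 1.73 CPM in the other cells, and rose by 3.69 ± 0.29 on the log2 scale (adjusted p = 1.26e-08). Replicate 1 was the lowest and replicate 2 the highest by far. The member with most Il2 held 21.6% of the Il2 UMIs of all members, and at least that share within its own library. Il10, which damps myeloid cells, stood at 30.5, 72.8, 22.5 and 17.97 CPM in members and 8.60, 10.6, 1.69 and 1.26 CPM in the other cells, a log2 fold change of 3.02 ± 0.21 (adjusted p = 3.09e-09). Its levels were higher in replicates 1 and 2 than in replicate 3 and IgG among the other cells. Cd40lg, a helper ligand usual in CD4+ T cells, rose from 0, 1, 13 and 11 UMIs in the other cells to 2, 19, 15 and 21 UMIs in members, which are fewer cells. Csf2 rose by 3.14 ± 0.32, with 3, 7, 68 and 188 UMIs in members, 1 cell holding 33.8% of their sum. Il21 rose by 3.50 ± 0.47, with 3, 32, 19 and 11 UMIs. The 5 that fell were Ltb, Tnfsf4, Tnfsf10, Spp1 and Il16, of which Il16 fell by 1.27 on the log2 scale.

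Of the chemokines outside the rule, 4 of 7 tested rose and 0 fell, with a median of 0.50, which was 0.81, 0.85 and 0.87 without replicate 1, 2 or 3 and 0.32 without IgG. Ccl1, the ligand of Ccr8, stood at 1265, 1533, 2073 and 2571 CPM in members and 178, 181, 334 and 393 CPM in the other cells, a log2 fold change of 2.90 ± 0.05 (SE, n = 4, adjusted p = 6.85e-16). The groups did not overlap, and the rise was alike in the 4 libraries. Ccl5, which most effector CD8+ T cells carry, differed little, at 4157, 3482, 6487 and 3451 CPM against 3509, 3589, 5107 and 2571 CPM, with members higher in 3 of 4 libraries and a log2 fold change of 0.33 ± 0.04 (adjusted p = 6.19e-06). In cells with a nontargeting guide this call was lost, at 0.045. Of 5 receptors of the 4 products tested, 0 rose in members and 2 fell. Ifngr1, a chain of the interferon gamma receptor, was lower at 148, 123, 198 and 142 CPM against 295, 279, 294 and 249 CPM, a log2 fold change of -0.79 ± 0.06 (adjusted p = 2.15e-08).

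The 2 genes given as markers beside the rule genes both rose. Crtam, an adhesion receptor that appears after T cell activation, stood at 351, 413, 337 and 408 CPM in members and 88.3, 104, 75.1 and 84.6 CPM in the other cells, a log2 fold change of 2.20 ± 0.04 (adjusted p = 9.99e-16). Rgcc, a regulator of the cell cycle, stood at 176, 234, 185 and 259 CPM against 28.8, 30.6, 22.3 and 27.6 CPM, a log2 fold change of 3.06 ± 0.07 (adjusted p = 5.30e-15). The groups did not overlap for either gene, and the 4 libraries lay close together. Crtam is annotated at chr9:40969691-41004628 and Rgcc at chr14:79288756-79301645 of mm10, both on the reverse strand.

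Transcription factors that follow antigen recognition were higher in members, 21 of 24 tested rising and 1 falling (median log2 fold change 0.81). Nr4a1 (Nur77), a nuclear receptor induced by T cell receptor signals, stood at 198, 168, 229 and 184 CPM in members and 63.3, 61.2, 22.5 and 21.8 CPM in the other cells, a log2 fold change of 2.50 ± 0.22 (SE, n = 4, adjusted p = 4.77e-08). Members were alike in the 4 libraries, whereas the other cells of replicates 1 and 2 had higher levels than those of replicate 3 and IgG. Nr4a3 rose by 2.52 ± 0.10 (adjusted p = 2.18e-12) and Nr4a2 by 1.96 ± 0.13 (adjusted p = 1.40e-09). Egr2, a zinc finger factor of the same response, stood at 27.3, 24.2, 92.2 and 95.03 CPM against 5.86, 6.67, 17.6 and 21.03 CPM, a log2 fold change of 2.29 ± 0.07 (adjusted p = 2.21e-13), and Egr3 rose by 2.31 ± 0.10 (adjusted p = 8.47e-12). The NF-kappaB subunit Rel rose by 1.77 ± 0.06 and the growth factor of transcription Myc by 1.70 ± 0.07, and the interferon regulatory factors Irf8 and Irf4, both induced by antigen in T cells, rose by 1.59 ± 0.04 and 1.01 ± 0.06 on the log2 scale. Jun and Fosb were the 2 that did not pass, and Ikzf2 (Helios) was the 1 that fell, by 0.60 on the log2 scale.

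Inhibitors of this signalling rose beside it. Of 22 feedback inhibitors tested, 16 were higher and 0 lower, with a median of 0.26 (0.40 without replicate 1), and in nontargeting cells 8 of 22 were higher. Nfkbid, an atypical inhibitor of NF-kappaB, stood at 95.7, 97.9, 107 and 70.4 CPM in members and 28.3, 24.1, 11.7 and 11.9 CPM in the other cells, a log2 fold change of 2.49 ± 0.15 (adjusted p = 3.88e-10). Spry1, a brake on the Ras pathway, rose by 2.25 ± 0.10 (adjusted p = 1.17e-11), Dusp4, a MAP kinase phosphatase, by 0.91 ± 0.07 and Socs1, which blocks cytokine receptors, by 0.82 ± 0.06 on the log2 scale. The checkpoint receptors of this list moved far less, Pdcd1 (PD-1) by 0.21 ± 0.06, Ctla4 by 0.26 ± 0.09 and Lag3 by 0.20 ± 0.03. Without replicate 3 or without IgG the calls of Pdcd1 (0.12 and 0.17) and Ctla4 (0.091 and 0.21) were lost, as they were in DESeq2 (adjusted p = 0.193 and 0.254), Ctla4 also in counts split into independent parts (adjusted p = 0.056), and in nontargeting cells Lag3 stood at -0.036. Proteins of early activation on the cell surface rose in 11 of 13 cases and fell in 1, Cd7, among them Il2ra (CD25) by 1.13 ± 0.06, Cd160 by 1.13 ± 0.04 and Tnfrsf4 (OX40) by 1.08 ± 0.06. Of 12 costimulatory receptors 8 rose and 0 fell, led by Slamf1 at 1.41 ± 0.07. Kdm6b, a demethylase of histone H3 lysine 27, rose by 2.02 ± 0.12 (adjusted p = 4.17e-10).

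The proximal T cell receptor machinery differed less, 16 of 24 genes being higher and 3 lower, with a median of 0.15. Zap70, the kinase bound to the receptor chains, rose by 0.55 ± 0.04 and its adaptor Lcp2 by 0.70 ± 0.04, whereas Plcg1 and Prkcq, further down the pathway, changed by -0.50 and -0.23. Among factors of mRNA decay, which shorten the life of cytokine transcripts, 7 of 14 were higher and 3 lower. Zfp36l1 rose by 1.28 ± 0.09 and Zc3h12a (Regnase-1) by 0.73 ± 0.11, the latter not called in cells thinned to 2000 UMIs (0.36, adjusted p = 0.155), whereas Zfp36l2 was lower at -0.23.

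The killing genes split. Of 17 tested, 7 were higher and 7 lower. Prf1 (perforin) stood at 871, 896, 1369 and 899.7 CPM in members and 506, 501, 715 and 425 CPM in the other cells, a log2 fold change of 0.999 ± 0.04 (SE, n = 4, adjusted p = 1.18e-12), with no overlap. Gzmb stood at 1902, 2479, 2606 and 1622 CPM against 1471, 1563, 1985 and 1112 CPM, members being higher in each of the 4 libraries although the ranges overlapped, a log2 fold change of 0.58 ± 0.04 (adjusted p = 1.44e-09). The granzymes of the cluster next to Gzmb went the other way. Gzmf stood at 25.1, 13.8, 10.6 and 5.99 CPM in members and 36.4, 69.8, 189.7 and 103 CPM elsewhere, a log2 fold change of -2.92 ± 0.34 (adjusted p = 1.82e-06), Gzmd at 1.95, 22.6, 13.6 and 6.34 CPM against 16.8, 36.1, 69.6 and 38.4 CPM (-1.92 ± 0.21, adjusted p = 6.12e-07) and Gzmc at 6.71, 42.96, 44.5 and 41.00 CPM against 30.1, 48.01, 184 and 167 CPM (-1.57 ± 0.20, adjusted p = 5.11e-06). In replicate 2 the gap in Gzmc was small, and in cells with a nontargeting guide Gzmc had the opposite sign (0.44, adjusted p = 0.389) and Gzmd was not called (-1.03). Single cells weighed on these values. The member richest in each gene held 35.2% of the Gzmf, 37.6% of the Gzmd and 15.6% of the Gzmc UMIs of all members. Within its own library its share was at least as large. These near-identical genes may also share reads.

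Effector transcription factors were mixed, 7 of 12 being higher and 4 lower. Tbx21 (T-bet) stood at 38.1, 37.98, 62.6 and 50.3 CPM in members and 26.7, 25.6, 30.8 and 27.02 CPM in the other cells, a log2 fold change of 0.88 ± 0.07 (adjusted p = 3.13e-08), and Zeb2 rose by 1.17 ± 0.05 (adjusted p = 8.47e-12). Id2, Runx3 and Irf1 were among the lower ones. Of 13 genes of inhibition and exhaustion 7 rose and 4 fell. Havcr2 (TIM-3) stood at 213, 189, 339.7 and 257 CPM in members against 134, 126, 191 and 151 CPM, a log2 fold change of 0.81 ± 0.04 (adjusted p = 6.02e-11), while Cd244a, Entpd1, Cd101 and Cd38 fell and Tox rose by 0.26 ± 0.04, a call that was lost in nontargeting cells (0.10, adjusted p = 0.52).

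Genes of precursor and circulating cells were lower in members, with 7 of 14 precursor genes falling and 2 rising, and 8 of 11 genes of egress and memory falling and 1 rising. Tcf7, which encodes the factor TCF-1 of precursor exhausted cells, stood at 6.06, 3.17, 3.89 and 8.81 CPM in members and 14.9, 13.7, 13.4 and 25.8 CPM in the other cells, a log2 fold change of -1.55 ± 0.12 (adjusted p = 7.77e-09). In nontargeting cells its change was -0.76 and not called. Slamf6, the surface marker used with it, did not differ detectably, at 0.02 ± 0.06. S1pr1, the receptor that leads T cells out of tissue, stood at 3.03, 3.17, 1.83 and 1.06 CPM against 15.1, 11.2, 9.19 and 6.13 CPM (-2.16 ± 0.16, adjusted p = 6.34e-09), and its activator Klf2 fell by 1.25 on the log2 scale (adjusted p = 9.47e-08). Among the 8 largest falls by that ranking, which leaves S1pr1 and Tcf7 out, were Txnip, which limits glucose uptake, at 9.52, 10.2, 24.6 and 24.3 CPM against 25.5, 26.2, 91.2 and 78.3 CPM (-1.62 ± 0.08, adjusted p = 5.11e-11), St8sia4, a sialyltransferase (-1.35 ± 0.08, adjusted p = 5.72e-10), and Tsc22d3 (GILZ), a glucocorticoid-induced gene (-1.28 ± 0.08, adjusted p = 1.18e-09). Txnip was lower in replicates 1 and 2 than in replicate 3 and IgG on both sides, and Tsc22d3 was higher there on both sides.

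Receptors for chemokines fell as a group, 8 of 9 tested being lower and 0 higher (median -0.40), with Cxcr4 at -0.91, Ccr2 at -0.70 and Cxcr3 at -0.52. The call of Cxcr4 was lost in nontargeting cells (-0.31, adjusted p = 0.502) and that of Cxcr3 in thinned cells (-0.28, adjusted p = 0.102). Cytokine receptors were divided, 7 of 16 higher and 7 lower, with Il18rap at 0.97 and Il15ra at 0.92 against Il7r at -0.97 and Ifnar1 at -0.83. Of 12 integrins and residency genes 4 rose and 5 fell, and of 9 NK receptors and adaptors 3 rose and 5 fell, Fcer1g by 0.99 on the log2 scale. Interferon-stimulated genes were lower in 16 of 27 cases and higher in 2, Bst2 and Socs1, among them Gbp4 at -0.95 and Ifit2 at -0.81.

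Most cell division genes were lower in members, 49 of 51 G2/M genes and 32 of 37 S phase genes, with 1 higher in each. Mki67, a marker of cycling cells, stood at 91.98, 96.1, 124 and 124 CPM in members and 207, 204, 223 and 247 CPM in the other cells, a log2 fold change of -0.93 ± 0.05 (SE, n = 4, adjusted p = 7.55e-11). Cenpf, a kinetochore protein, stood at 33.3, 24.4, 47.1 and 46.99 CPM against 84.04, 87.7, 109.7 and 122 CPM (-1.32 ± 0.07, adjusted p = 1.07e-10) and the phosphatase Cdkn3 changed by -1.29 ± 0.10 (adjusted p = 1.13e-08). Members were lower in each library for these 3 genes, with no overlap. Anp32e and Cdca7 were the 2 that rose.

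Genes of protein secretion rose without exception among those listed, 20 of 20 tested, with a median of 0.27. Hspa5 (BiP), the chaperone of the endoplasmic reticulum, stood at 798, 941, 807 and 889.7 CPM in members against 423, 451, 485 and 481 CPM, a log2 fold change of 0.98 ± 0.04 (adjusted p = 8.47e-12), and the others changed less, Pdia6 by 0.68 ± 0.05 and Xbp1 by 0.53 ± 0.05. Transport and synthesis of amino acids rose in 10 of 16 cases and fell in 0, with the transporters Slc7a1 at 1.02 and Slc7a5 at 0.87. Of 20 glycolysis genes 14 rose and 1, Pfkm, fell, most by little (median 0.17), with Hk2 (hexokinase 2) the largest at 1.23 ± 0.06. Cholesterol synthesis was lower in 14 of 20 cases and higher in 1. Of 13 mitochondrially encoded genes 0 rose and 5 fell, with a median of -0.08, and 1 fell without IgG. Survival genes were mixed, 8 of 14 higher and 4 lower, Bcl2l1 (BCL-XL) at 0.85 and Bcl2 at -0.83. Of 20 genes of dissociation and heat stress 14 rose and 2 fell. This list shares Egr1, Fos, Fosb, Jun and Junb with the antigen response factors, Dusp1 with the feedback inhibitors and Hspa5 with secretion, and the chaperone genes Hspa8, Dnaja1, Hsp90aa1, Hsp90ab1, Hspe1, Hspd1 and Hsph1 were among the 14 that rose, whereas the heat-inducible Hspa1a and Hspa1b, at -1.22 and -1.67, were the 2 that fell. The part of tissue dissociation in the antigen response genes was not tested. Counts of all lists are set beside the background in the plot of lists.

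**Figure D3:**
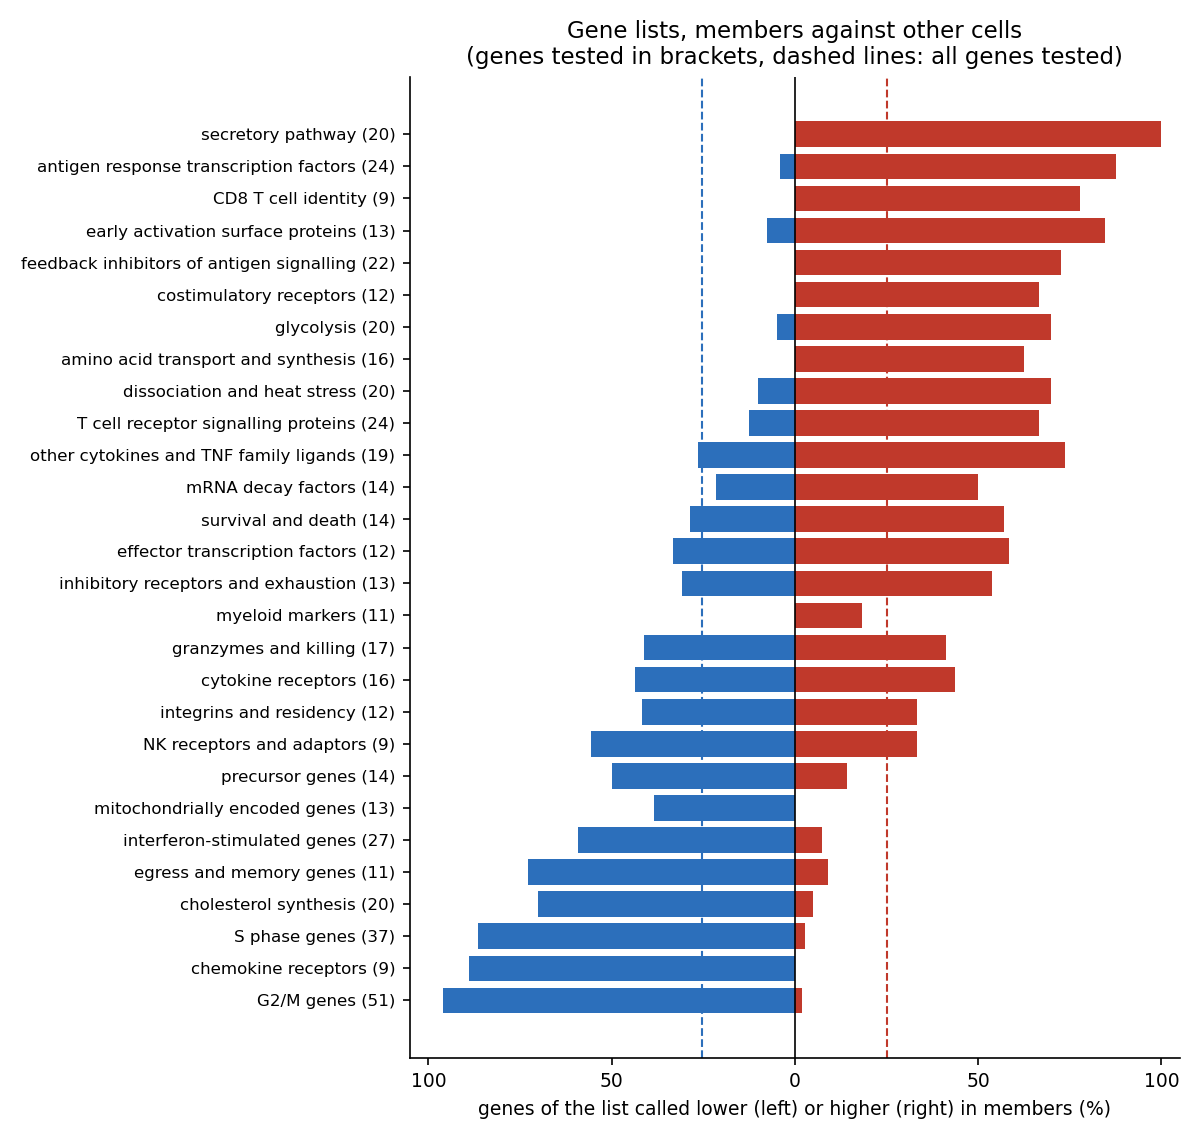
Share of the genes of each list (y axis, genes tested in brackets, lists with at least 9 tested) that were called lower (blue, left) or higher (red, right) in members against the other cells (x axis, %), with dashed lines at the 25.4% and 25.2% of all 11864 genes. Secretion and antigen response factors lie furthest to the right, and G2/M genes, chemokine receptors and S phase genes furthest to the left.

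Members were not alike among themselves. By UMI number, Ccl3 and Ccl4 together led in 72.2%, 72.5%, 86.2% and 70.5% of members and Xcl1 led in 27.1%, 26.0%, 13.6% and 28.4%. Ifng led in at most 1.53%. Xcl1-led members, 69, 68, 89 and 331 cells, were compared with 184, 190, 563 and 821 Ccl-led members, the 4 choosing genes left out. In this comparison 1379 of 8860 genes (15.6%) were higher and 1522 (17.2%) lower in Xcl1-led members. Since the classes were cut from the same measured genes, genes regulated with Xcl1 or with Ccl3 and Ccl4 were bound to differ.

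Crtam stood at 726, 737, 854 and 713 CPM in Xcl1-led and 233, 304, 246 and 263 CPM in Ccl-led members, a log2 fold change of 1.56 ± 0.08 (SE, n = 4, adjusted p = 2.36e-11), with no overlap. Ccl1 was likewise higher, at 2233, 2871, 4182 and 3734 CPM against 969, 1096, 1702 and 2007 CPM (1.21 ± 0.06, adjusted p = 4.74e-11). The other largest rises were Tnfsf8, the ligand of CD30 (2.53 ± 0.19, adjusted p = 5.58e-09), the retinoic acid carrier Crabp2 (2.28 ± 0.17, adjusted p = 6.77e-09), the lymph node homing receptor Ccr7 (1.94 ± 0.26, adjusted p = 1.17e-05) and the receptor of IL-33, Il1rl1 (1.63 ± 0.14, adjusted p = 5.47e-08). Cd160 and Tnfsf11 rose by 1.09 ± 0.07 and 1.23 ± 0.13.

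The killing genes were lower in Xcl1-led members, 8 of 14 falling and 1 rising. Gzmb stood at 537, 600.3, 430.2 and 582 CPM in Xcl1-led and 2386, 3131, 2974 and 2131 CPM in Ccl-led members, a log2 fold change of -2.27 ± 0.09 (adjusted p = 5.33e-13). The Xcl1-led values lie below those of the cells outside the members too, which were 1471, 1563, 1985 and 1112 CPM, a pair of values set side by side without a test. Prf1 stood at 332, 547, 522 and 488 CPM against 1032, 995, 1518 and 1098 CPM (-1.27 ± 0.09, adjusted p = 2.01e-09), and Ccl5 at 1578, 1743, 2240.3 and 1306 CPM against 5076, 4269, 7268 and 4524 CPM (-1.60 ± 0.06, adjusted p = 5.33e-13). For none of the 3 did the classes overlap.

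Il10 was lower in Xcl1-led members, at 3.58, 2.54, 0.755 and 1.11 CPM in Xcl1-led against 39.9, 102, 26.5 and 26.3 CPM in Ccl-led ones, the former from 4, 3, 1 and 3 UMIs (-4.57 ± 0.26, adjusted p = 1.93e-10). Genes of exhaustion were lower in Xcl1-led members, 8 of 13 falling and 1, Cd160, rising. Ctla4 stood at 89.6, 96.7, 18.9 and 37.5 CPM against 391, 389.7, 234 and 173 CPM (-2.33 ± 0.14, adjusted p = 4.58e-10), Entpd1 (CD39) changed by -2.79 ± 0.18 (adjusted p = 1.51e-09), Havcr2 by -1.04 ± 0.09 and Pdcd1 by -0.70 ± 0.07. Sdcbp2, a syntenin, and Gzmc completed the 5 largest falls, at -2.56 ± 0.19 and -2.43 ± 0.27. Antigen response factors fell in 15 of 24 cases and rose in 2, with Nr4a1 at -0.74 ± 0.08, while Egr2 rose by 0.40 ± 0.12, a call that was lost without replicate 1 (0.31) or replicate 3 (0.37). Tnf was lower too, at -0.93 ± 0.11 (adjusted p = 3.59e-06). Of the precursor genes 5 of 11 rose and 3 fell, but Tcf7 itself did not pass the test, at 0.11 ± 0.30. Glycolysis fell in 16 of 19 cases and S phase genes in 26 of 37, while secretion rose in 16 of 20. Median UMIs per cell of Xcl1-led and Ccl-led members were 15819 and 16456 in replicate 1, 17208 and 14891 in replicate 2, 14576 and 12088 in replicate 3 and 7628 and 6363 in IgG.

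**Figure D4:**
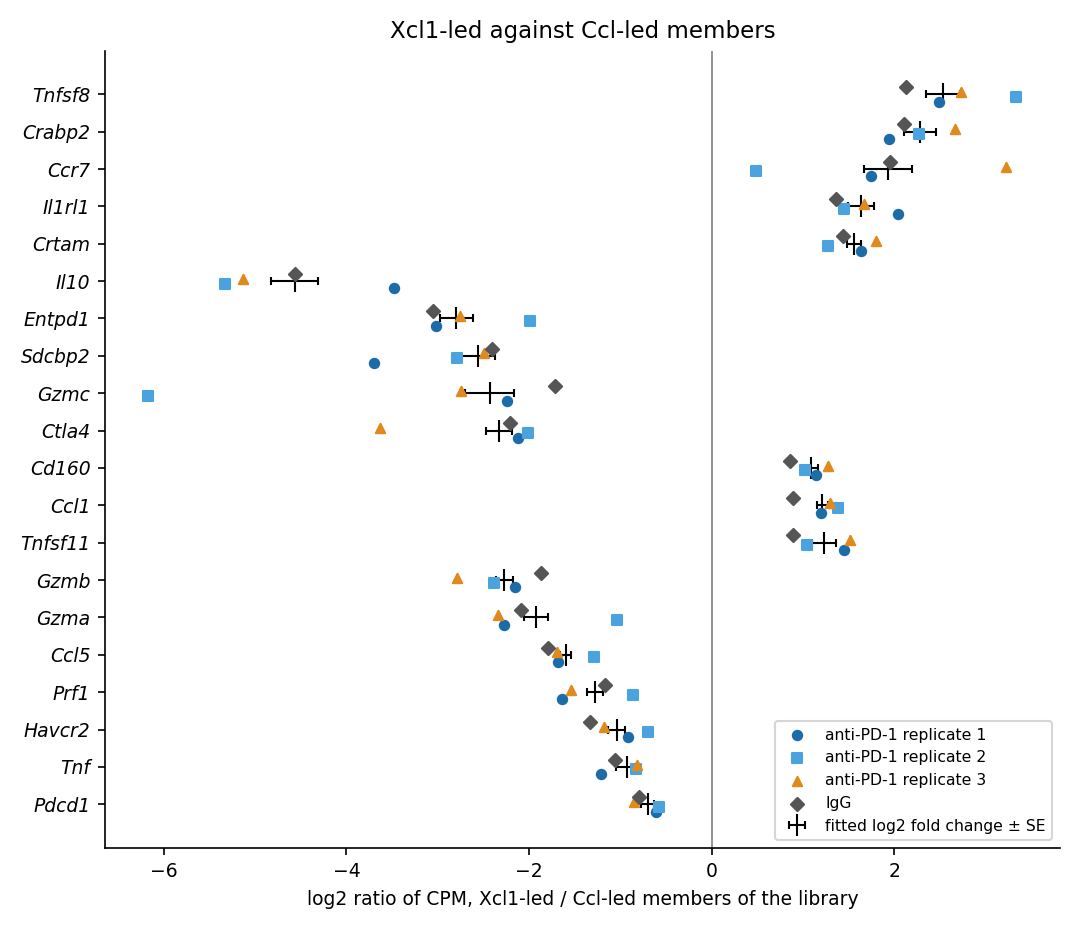
Log2 ratio of CPM in Xcl1-led to that in Ccl-led members of the same library (x axis) for the 5 largest rises, the 5 largest falls and 10 listed genes of cytokines, killing and inhibition (y axis), with symbols for libraries and a black mark for the fitted log2 fold change ± SE over 4 libraries. Gzmb, Ccl5 and Prf1 lie left of 0 and Cd160 right of 0 in each library, whereas the 5 largest rises and falls had to have 1 direction in each.

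Members were also split at the middle rank of their Ifng share within each library, a split chosen after the data were seen. Ifng stood at 4651, 7922, 4392 and 5130.4 CPM in the upper and at 231, 264, 272 and 317 CPM in the lower members. Median UMIs per cell of upper and lower members were 17399 and 15943 in replicate 1, 18087 and 14488 in replicate 2, 13238 and 11681 in replicate 3 and 6804 and 6706 in IgG. Upper members were thus deeper in each library, and the part of depth in the differences was not tested. Fewer genes differed, 213 of 9087 (2.34%) being higher and 112 (1.23%) lower. Il2 stood at 7.69, 129.9, 39.7 and 56.6 CPM in upper and 3.26, 3.97, 5.56 and 2.17 CPM in lower members, a log2 fold change of 3.83 ± 0.22 (SE, n = 4, adjusted p = 5.44e-14), with replicate 1 lowest and replicate 2 highest among upper members. Tnf stood at 37.2, 46.9, 197 and 141 CPM against 13.95, 24.3, 82.9 and 62.4 CPM (1.21 ± 0.08, adjusted p = 7.41e-13), upper members being higher in each library, Gzmc changed by 2.08 ± 0.15 (adjusted p = 1.46e-11), the cell cycle inhibitor Cdkn1a by 1.14 ± 0.14 and Sv2c by 1.11 ± 0.15. Glycolysis rose in 12 of 19 cases and killing genes in 8 of 14. The 5 largest falls were Gm156 (-1.01 ± 0.13), Trerf1 (-0.997 ± 0.15), Timp2 (-0.96 ± 0.14), Ikzf2 (-0.90 ± 0.10) and the integrin Itgae (-0.90 ± 0.16), each with an adjusted p at or under 0.000372. In DESeq2, Cdkn1a and Gm156 were not called (adjusted p = 0.0707 and 0.307).

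Members were set against 2 other sets of cells of the same libraries, each likewise chosen by its transcripts. Granzyme C-positive cells were those of the top 10% by the share of Gzmc that had a Gzmc UMI, 1944 in all. In replicates 1 and 2 and IgG fewer than 10% of cells had one, so that the set held every cell with at least 1 Gzmc UMI, and the part of free RNA in single UMIs was not tested. Of the members, 3.92%, 6.49%, 8.58% and 6.19% were among them, where 5.45%, 5.85%, 10.0% and 8.58% of all cells were. Tcf7 Slamf6-high cells were the top 10% by these 2 genes together, 2334 in all, and held 7.45%, 4.20%, 5.82% and 7.04% of members. Shared cells and the choosing genes of both sides were left out. Against granzyme C-positive cells edgeR called 2240 of 10023 genes (22.3%) higher and 2340 (23.3%) lower in members, and against Tcf7 Slamf6-high cells 2620 of 9982 (26.2%) higher and 2675 (26.8%) lower. Leaving out shared cells took cells rich in Gzmc, or in Tcf7 and Slamf6, from the members, so that genes that go with these can differ by the choice of cells. These calls, and the values below, therefore describe the chosen cells only and are not read as tests, and since both contrasts draw on the same members they are given side by side.

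Against granzyme C-positive cells, the largest rises in members were Tnfsf14 (3.98 ± 0.12), Il2 (3.94 ± 0.23), Il10 (3.54 ± 0.19), Rgcc (3.36 ± 0.08) and Crtam (3.08 ± 0.08). Gzmb stood at 1818, 2393, 2353 and 1419 CPM in members and 3308, 2721, 4408 and 2913 CPM in granzyme C-positive cells (-0.72 ± 0.10), and Prf1 at 858, 858, 1338 and 838 CPM against 652, 521, 1071 and 766 CPM (0.41 ± 0.07). The largest falls were the neighbours Gzmd, Gzme, Gzmf and Gzmg of Gzmc. The members kept in replicates 1 and 2 and IgG had no Gzmc UMI by construction, and these genes may share reads with Gzmc. Gzmf, for example, stood at 0.682, 1.22, 2.91 and 1.90 CPM in these members against 427, 882, 1556 and 955 CPM, and in all members at 25.1, 13.8, 10.6 and 5.99 CPM. Fcer1g, the adaptor of Fc and NK receptors, stood at 0.455, 0.733, 20.2 and 17.5 CPM against 62.6, 65.01, 286 and 172 CPM, where in all members it had fallen by 0.99 on the log2 scale. Of 51 G2/M genes 49 were called lower in members here too.

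Against Tcf7 Slamf6-high cells, Ccl1 stood at 1265, 1553, 2133 and 2672 CPM in members and 86.5, 91.8, 107 and 174 CPM in these cells, a log2 fold change of 4.13 ± 0.07. Il10 (3.78 ± 0.19), Il2 (3.11 ± 0.36), Utf1 (2.61 ± 0.11) and Cdkn1a (2.57 ± 0.24) followed. Gzmb stood at 1943, 2553, 2716 and 1683 CPM against 522, 458, 533 and 275 CPM (2.41 ± 0.09). The largest falls were S1pr1, at 2.98, 3.28, 1.69 and 0.873 CPM against 53.2, 42.6, 31.2 and 17.8 CPM (-4.000 ± 0.16), Id3 (-3.54 ± 0.23), Klf2 (-3.04 ± 0.20), Cmah (-2.85 ± 0.14) and Gm26740 (-2.85 ± 0.17). Cell division was divided here, 17 of 37 S phase genes being called higher in members and 0 lower, while 23 of 51 G2/M genes were called lower and 3 higher.

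**Figure D5:**
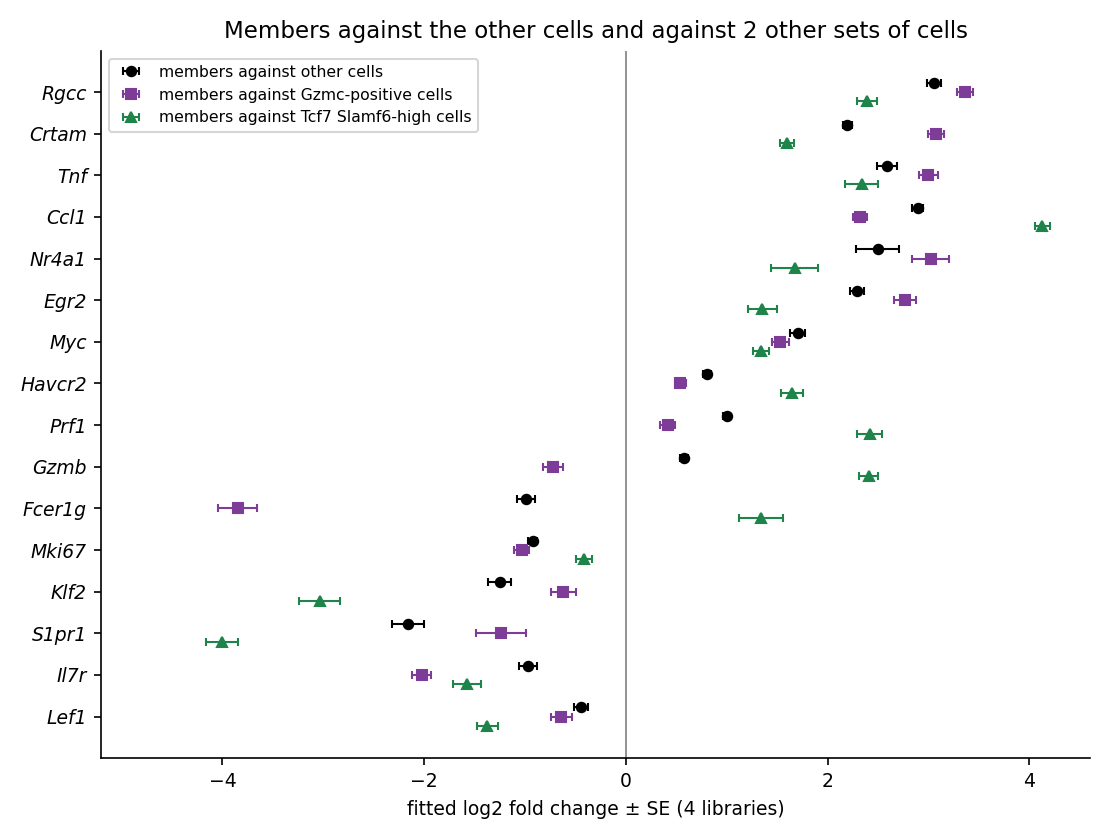
Fitted log2 fold change ± SE over 4 libraries (x axis) of 16 genes (y axis) in members against the other cells (black circles), granzyme C-positive cells (purple squares) and Tcf7 Slamf6-high cells (green triangles). Rgcc, Crtam, Tnf, Ccl1, Nr4a1, Egr2 and Myc lie right of 0 in each contrast, whereas Gzmb and Fcer1g lie left of 0 against granzyme C-positive cells and right of 0 against Tcf7 Slamf6-high cells.

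Treatment was compared in 3 ways, with 1 IgG library on one side, so that treatment, depth and the library cannot be told apart. Because the rule fixes members at 10% of each library, a common cut was applied to cells thinned to 2000 UMIs, and cells with at least 36 UMIs of the 4 genes made up 12.1%, 14.2% and 10.5% of the anti-PD-1 libraries and 8.06% of IgG. The mean was 12.3% ± 1.84 (SD, n = 3), 4.22 points above IgG (two-sided exact permutation test, p = 0.25, the smallest that 3 against 1 allows), and the replicate nearest to IgG exceeded it by 2.48 points. Thinning left out 8, 5, 59 and 289 shallower cells.

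Within members, edgeR called 0 of 10471 genes (0%) between treatments after adjustment and 198 before it, at p under 0.05, and DESeq2 called 0 after and 107 before. The smallest unadjusted p belonged to Cd81, a tetraspanin, with 0, 0, 2 and 49 UMIs in members, 1 cell holding 23.5% of their sum. Cd74, the invariant chain of MHC class II, stood at 4.33, 2.49, 7.21 and 21.6 CPM in members, Mt3, a metallothionein, at 24.7, 26.2, 28.0 and 12.1 CPM, Tox2 at 24.0, 24.0, 20.4 and 11.2 CPM and the cytokine Lta at 11.9, 12.9, 17.4 and 29.5 CPM. In all 5 the IgG value lay outside the range of the anti-PD-1 libraries, which their choice by p favours. Without replicate 3, 803 of 9915 genes were called, a comparison of replicates 1 and 2 with IgG.

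The difference between members and the other cells was also compared between treatments, and 0 of 11864 genes (0%) were called in edgeR, 257 at an unadjusted p under 0.05, and 0 in DESeq2 (41 unadjusted). AY036118 came closest, with a ratio of members to other cells of 1.08, 1.12, 1.09 and 0.794 (log2 difference, anti-PD-1 minus IgG, 0.49 ± 0.08, adjusted p = 0.0922), followed by Gm42418, with 0.907, 0.786, 0.761 and 0.611 (0.44 ± 0.07, adjusted p = 0.0922), Cd81, Serpinb9 and Serpinb6b. Serpinb9, an inhibitor of granzyme B, had ratios of 1.76, 1.82, 1.99 and 2.71 (adjusted p = 0.21), and Serpinb6b of 1.37, 1.58, 1.37 and 2.01 (adjusted p = 0.447). Without replicate 3, 91 genes were called, and without replicates 1 and 2 in turn 9 and 4.

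The share of members was then compared between knockouts. Of 71 groups with at least 10 cells in each library, nontargeting cells being 1 of them, 0 (0%) differed from the rest in their share of members after adjustment (edgeR), and 3, Mogat2, Mdh2 and Dgkz, did so at an unadjusted p under 0.05. Cells with a nontargeting guide were members in 11.5%, 10.6%, 10.2% and 9.88% of cases, a log2 ratio of 0.04 ± 0.05. The highest ratios were those of Agps, a peroxisomal enzyme of ether lipid synthesis (0.68 ± 0.35, members in 18.2%, 7.14%, 8.99% and 20.1% of cases), Cops8, a subunit of the COP9 signalosome (0.66 ± 0.41, members in 6.67%, 14.3%, 9.38% and 19.0% of cases), and Dgkz, a kinase that removes diacylglycerol (0.64 ± 0.31), whose cells were members in 15.8%, 15.6%, 11.5% and 16.2% of cases. The lowest were those of Mogat2 (-1.03 ± 0.40), the malate dehydrogenase Mdh2 (-0.79 ± 0.38) and the phospholipase Plcg2 (-0.73 ± 0.38), each with an adjusted p of 0.702. Agps and Cops8 were under 10% in 2 of 4 libraries each. Mogat2 cells were members in 14.3%, 8.33%, 0% and 5.10% of cases, thus above nontargeting cells in replicate 1, Mdh2 cells in 9.09%, 9.09%, 6.35% and 5.14% and Plcg2 cells in 6.25%, 0%, 5.66% and 8.33%. The 0 of 58 Mogat2 cells in replicate 3 allow a share of up to 5.17% and the 0 of 26 Plcg2 cells in replicate 2 one of up to 11.5% (3 counts of the cells), by counting error alone. A Cas9 cut need not lower the mRNA of its target. The mRNA of Mdh2 stood at 149.9, 247, 82.3 and 102 CPM in cells with its guides against 324, 352, 299.6 and 315 CPM in nontargeting cells, lower in each library, and that of Agps at 15.2, 11.3, 15.3 and 12.1 CPM against 19.8, 21.3, 21.4 and 22.6 CPM, also lower in each. Dgkz stood at 62.5, 94.6, 71.2 and 69.6 CPM against 88.7, 81.5, 89.4 and 106 CPM, higher in replicate 2, and Cops8 at 40.3, 38.2, 42.2 and 23.9 CPM against 42.1, 42.1, 35.5 and 35.8 CPM, higher in replicate 3. Mogat2 had 0 UMIs in both, and Plcg2 at most 2.66 CPM. Elovl1, named because the study turns on it and not by its rank, had 20%, 11.4%, 8.57% and 6.67% members (0.12 ± 0.36, adjusted p = 0.978), from 10, 8, 6 and 7 cells. Its mRNA stood at 28.8, 45.1, 41.6 and 49.6 CPM in cells with its guides against 45.3, 40.2, 47.9 and 48.4 CPM, lower in replicates 1 and 3 and higher in replicate 2 and IgG. The median SE over targets was 0.35 on the log2 scale.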

How the data were processed

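Gene expression and guide libraries (8 samples, 4 channels of 10x Genomics 3' v3.1) were grouped by treatment from the labels, 3 anti-PD-1 and 1 IgG. The deposited matrices hold raw UMI counts for 32285 genes, which the authors obtained from Cell Ranger (version 3.1.0) and mm10, and the deposited guide calls hold the number of guides per barcode, from thresholds Cell Ranger set. The annotation release was not given in the sources used here. Members, gene lists and tests were chosen with earlier results of these data known, and 37 lists hold 545 genes, 542 of them in the files.

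Counts were summed per library over members and over the other cells, since cells are not replicates. The choosing genes were removed, and edgeR 4.0.16 (quasi-likelihood, filterByExpr, TMM, library as a block, Benjamini-Hochberg at 0.05 over all genes) tested the sums. The block joins sums from the same library. The same fit was used for members by leading gene and for other sets of cells, and the treatment fit had 1 sum per library, the IgG library being assumed to vary like the others. DESeq2 1.42.0 was an alternative. Shares of targets were tested on cell numbers. No doublet caller was run. Cells with more than 1 guide were left out, and limiting UMIs to 3 median absolute deviations was an alternative. Granzyme C-positive cells were to be the top 10%, but this reached cells without a Gzmc UMI in some libraries, which were dropped. Scripts were tested on simulated counts. Named genes were the 12 largest rises and 8 largest falls among called genes with the same sign in 4 libraries and a mean log2 CPM above 4, 5 of each in the other contrasts, the 5 smallest p for treatment, the 3 highest and lowest targets, and genes of the lists. Igkc, a B cell transcript, failed the sign rule. Intervals are exact Clopper-Pearson at 95%, limits of a count of 0 are 3 counts of the total, and both cover counting error only. Work was done in R 4.3.3 and Python 3.11.15 with scipy 1.17.1, numpy 2.4.6, matplotlib 3.10.9 and pandas 2.3.3. Some genes of the lists are not reported here by name. Errors of log2 fold changes are SE of the fit.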

Additional observations from a re-analysis of the deposited data

Results flagged for a closer look

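Barcodes with several called guides entered no comparison. In anti-PD-1 replicate 2, 47 of 323 such barcodes, 14.6% (exact Clopper-Pearson 95% interval 10.9 to 18.9), had a share of Ifng, Xcl1, Ccl3 and Ccl4 UMIs at or above that of the lowest member, whereas 10% of the single-guide cells did by construction. The other libraries held 10.8%, 9.42% and 10.1% of such barcodes in replicates 1 and 3 and IgG. Their median UMI count was 22024, 21501, 20790 and 10594 in the 4 libraries, above that of members. Among barcodes with no guide call the share was lower, 6.95%, 6.36%, 6.62% and 6.85%. The part of doublets in these shares was not tested.

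Slamf6 was lower in members than in the other cells in each anti-PD-1 library and higher in IgG, by 0.092 in log2 CPM, a difference between treatments that rests on 1 IgG library and did not pass the interaction test.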

How the results depend on the processing

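Genes higher and lower in members numbered 1608 and 1256 with no replicate block (the library term left out), 1681 and 1508 of 9342 tested in cells thinned to 2000 UMIs, and 1153 and 914 of 9312 tested in cells with a nontargeting guide, against 2990 and 3008. Thinning and the nontargeting cells leave fewer counts and genes to test. Under the other alternatives these counts stayed within 1.5 times, as under leaving out each library in turn (2606 to 2860 higher, 2321 to 2688 lower) and summing replicates 1 and 2 as 1 library (3016 and 2849). Within members, treatment called 0 genes without replicates 1 or 2 and 803 without replicate 3. The interaction called 27 genes with no filter on low counts, 5 with the top 20% of cells as members and 4 to 91 when each anti-PD-1 library was left out. Genes differing between Xcl1-led and Ccl-led members numbered 1586 in DESeq2 and 1843 to 2894 when each library was left out, against 2901. DESeq2 called 2826 against granzyme C-positive cells, against 4580 in edgeR, and 80 in the Ifng split, against 325. The cause of these moves was not tested. Slamf6, not called at 0.02, took the other sign with no filter (-0.018), the top 20% of cells (-0.16, adjusted p = 0.0191 in edgeR), thinning (-0.067) and counts split into independent parts (-0.071), and lay between -0.037 and 0.081 as libraries were left out. Gzmc (0.44) and Lag3 (-0.036) turned in nontargeting cells. Tcf7 in Xcl1-led members ranged from -0.022 to 0.37 as libraries were left out. Of 135 values of single genes, 106 kept their direction and call under each alternative that gave one. Without the replicate block the calls in members of Bcl2, Ccl5, Ccr2, Ctla4, Cxcr4, Epcam, Gbp4, Gzmb, Gzmc, Gzmd, H2-Aa, Il7r, Itgax, Klf2, Lag3, Pdcd1, Prkcq, Tox, Tsc22d3, Zc3h12a and Zfp36l2 were lost with the same sign, and in nontargeting cells those of Ccl5, Ctla4, Cxcr4, Epcam, Gzmd, Ifit2, Itgax, Pdcd1, Prkcq, Tcf7 and Tox. In nontargeting cells the calls within several lists fell by over 1.5 times, to 9 of 15 other cytokines, 8 of 22 feedback inhibitors, 7 of 24 T cell receptor proteins, 3 of 13 inhibitory receptors, 8 of 20 glycolysis, 11 of 20 secretion and 4 of 13 survival genes higher, and to 2 of 10 precursor genes, 5 of 9 chemokine receptors, 5 of 21 interferon-stimulated, 4 of 20 cholesterol and 0 of 13 mitochondrially encoded genes lower. DESeq2 gave no adjusted p for Itgae, Timp2 and Trerf1 in the Ifng split. Each of the 4 held-out genes kept its direction and its call. Among lists, a majority of higher or lower genes turned for tumour epithelial markers without cells rich in other types' markers (1 higher and 0 lower) and for CD4 and gamma delta markers in nontargeting cells (1 and 0). The planned comparison of Ifng-led members was not run, since the classes held 1 to 9 cells. With 1 IgG library, and depth of IgG lowest, differences between treatments are the least certain values here.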

Other observations

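Genes of ribosome biogenesis, which were in no list, were chosen by the start of their symbols after their values were seen, and no test of the group was made. Of the genes whose symbol starts with Nop, 7 of 8 tested were higher in members and 0 lower (median log2 fold change 0.92). For Rrp the numbers were 7 of 8 and 0 (0.80) and for Utp 10 of 11 and 0 (0.71). These symbols name nucleolar proteins that process ribosomal RNA. Of the genes starting with Psm, which mostly name proteasome subunits, 34 of 48 were higher and 4 lower, by less (0.22).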
